A study of Homo sapiens with 8 samples.

Results

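The genes described here are 7 enzymes of mitochondrial fatty acid oxidation (CPT1A, CPT2, ACADM, ACADVL, HADHA, HADHB and ACAA2) and PPARGC1A, a coactivator that drives transcription of that pathway. They were chosen by name: every probe whose only gene symbol in the platform table was 1 of these 8 symbols was taken, which gave 9 probes for 8 of the 18336 genes and 31741 probes on the array. CPT1A had 2 such probes and each of the others had 1. Enzymes that make ketone bodies were not among the 8. The measured genes of ketone body metabolism are given further on.

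The study exposed 2 hepatocellular carcinoma cell lines to GSK343, an inhibitor of the histone methyltransferase EZH2, and measured total RNA on 8 arrays with a single dye, 2 arrays for each of 4 groups. The groups were PLC5 cells (PLC/PRF/5) with 10 µM GSK343, PLC5 control cells, HepG2 cells with 10 µM GSK343 and HepG2 control cells. The sample labels and the series text give 16 h of exposure, whereas the treatment protocol gives 6 h, so the exposure time is uncertain. The labels do not say whether the controls received solvent, nor whether a group's pair of arrays stands for separate cultures, so the p-values reflect a spread between arrays that may be technical.

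Long-chain fatty acids enter the mitochondrial matrix as carnitine esters and are then shortened in repeated rounds of oxidation, hydration, oxidation and thiolysis, which yield acetyl-CoA. In hepatocytes a large part of that acetyl-CoA becomes ketone bodies during fasting, and the entry step at the outer membrane is blocked by malonyl-CoA, the first committed intermediate of fatty acid synthesis. Many genes of the pathway are transcribed under PPARA, ESRRA and their coactivator PGC-1α, the product of PPARGC1A.

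Array brightness differed before normalization, with median deposited intensities from 226 to 552, and all values below are intensities after quantile normalization unless stated otherwise. Of the hepatocyte markers, 9 of 9 measured lay above the median of all probes in every group, and their summed normalized intensity was 351699 to 374102 in GSK343-treated PLC5, 343990 to 379384 in PLC5 controls, 1236640 to 1253900 in GSK343-treated HepG2 and 1126885 to 1197747 in HepG2 controls. Both lines therefore carried hepatocyte transcripts, but 8 of the 9 were lower in PLC5 controls, among them albumin (ALB) at 706 and 786 in PLC5 controls against 140643 and 150765 in HepG2 controls. Sums of fibroblast, endothelial and immune markers stayed between 1265 and 6241 in all 4 groups, each over fewer genes than the hepatocyte sum. In each group 1 to 2 of 5 fibroblast, 1 of 5 endothelial and 2 of 4 immune markers lay above the median of all probes.

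The promoters of the members whose values carry the results below are shown first, from RefSeq on GRCh38.p14, each running from 250 bases before to 50 bases after an annotated start. All 8 genes matched, with 10 windows, since ACADVL and PPARGC1A have 2 annotated starts each in that table. HADHA and HADHB lie head to head on chromosome 2, with starts at 26244632 (minus strand) and 26244939 (plus strand), 307 bases apart. Their windows share 194 bases, which are printed in capitals and are reverse complements of each other. The HADHA window is chr2:26244583-26244882 on the minus strand and the HADHB window is chr2:26244689-26244988 on the plus strand.
HADHA: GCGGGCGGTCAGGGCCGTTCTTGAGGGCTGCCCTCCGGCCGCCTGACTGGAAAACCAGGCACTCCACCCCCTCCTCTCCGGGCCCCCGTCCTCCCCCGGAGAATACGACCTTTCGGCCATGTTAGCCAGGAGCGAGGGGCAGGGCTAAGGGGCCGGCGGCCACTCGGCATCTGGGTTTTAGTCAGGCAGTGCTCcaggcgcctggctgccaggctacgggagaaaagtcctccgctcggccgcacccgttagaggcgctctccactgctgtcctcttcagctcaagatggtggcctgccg
HADHB: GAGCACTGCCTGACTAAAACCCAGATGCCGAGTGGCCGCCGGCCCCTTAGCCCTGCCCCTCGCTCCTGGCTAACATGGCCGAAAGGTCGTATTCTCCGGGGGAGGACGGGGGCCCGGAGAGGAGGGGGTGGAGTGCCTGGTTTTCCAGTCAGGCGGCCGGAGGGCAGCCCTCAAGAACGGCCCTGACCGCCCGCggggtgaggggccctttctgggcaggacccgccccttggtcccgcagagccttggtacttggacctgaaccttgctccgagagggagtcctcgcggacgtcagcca

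The CPT1A window, chr11:68844228-68844527 on the minus strand, is shown for its gene's changes. They were the largest among the members in HepG2 and between the control arrays, but not in PLC5. The window is given below. This CPT1A window held none of the motifs searched and has 50% GC.
CPT1A: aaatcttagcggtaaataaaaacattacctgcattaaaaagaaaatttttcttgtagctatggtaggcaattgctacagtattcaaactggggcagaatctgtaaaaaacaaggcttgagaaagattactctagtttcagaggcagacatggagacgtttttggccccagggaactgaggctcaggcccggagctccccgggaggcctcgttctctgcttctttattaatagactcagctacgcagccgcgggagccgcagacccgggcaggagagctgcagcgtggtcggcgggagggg

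PPARGC1A spans chr4:23792021-24472905, and the array probe is not tied to either start, so both windows are shown, with motif matches in capitals. The upstream window, chr4:24472856-24473155 on the minus strand, has 72% GC and holds an E-box (CACGTG) beginning 123 bases before the start and an Sp1 box (GGGCGG) on the opposite strand. The downstream window, chr4:23881052-23881351 on the minus strand, has 44% GC and held no match.
PPARGC1A upstream start: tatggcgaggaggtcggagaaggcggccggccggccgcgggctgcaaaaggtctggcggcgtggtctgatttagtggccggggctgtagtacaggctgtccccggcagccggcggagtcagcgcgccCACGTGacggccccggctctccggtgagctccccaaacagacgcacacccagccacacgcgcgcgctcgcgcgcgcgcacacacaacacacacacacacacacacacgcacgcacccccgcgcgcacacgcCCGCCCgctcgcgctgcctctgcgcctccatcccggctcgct
PPARGC1A downstream start: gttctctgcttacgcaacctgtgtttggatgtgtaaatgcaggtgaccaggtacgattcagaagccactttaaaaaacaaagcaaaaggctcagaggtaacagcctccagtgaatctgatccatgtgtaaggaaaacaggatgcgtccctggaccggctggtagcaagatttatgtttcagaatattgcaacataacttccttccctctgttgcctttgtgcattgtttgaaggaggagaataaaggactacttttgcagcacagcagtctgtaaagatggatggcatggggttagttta

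Motifs were searched on both strands in all 10 member windows and in 35116 RefSeq promoter windows of 300 bases. The Sp1 box occurred in 6 of the 10 member windows against 45.0% of all windows, and the HADHA and HADHB windows hold 1 of these boxes in common. The E-box occurred in 1 member window and 7.26% of all windows, and the ETS/GABP site CCGGAAGT in 1 (CPT2) and 4.14% of all windows. No member window held the ERR element TCAAGGTCA (0.353% of all windows), the nuclear receptor site TGACCTTTG (0.407%), the ATF4-CEBP cores TGATGNAAN (3.61%) and TTGCATCA (0.866%), the cAMP response element TGACGTCA (1.85%), the NRF1 core CGCATGCG (2.02%) or the CCAAT box of NF-Y (34.6%). The nuclear receptor direct repeat spaced by 1 base was in none of them and in 0.0228% of all windows. A match is a run of letters and not a bound site, and its absence covers these windows only.

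CPT1A, the carnitine palmitoyltransferase of the outer membrane and the step that malonyl-CoA inhibits, showed no called change after GSK343 in PLC5 and was higher after it in HepG2. CPT1A (chr11:68754620-68844277) had normalized intensities of 27185 and 26814 on the GSK343 arrays of PLC5, against 31049 and 33109 on the PLC5 control arrays. Both treated arrays lay below both controls, with a log2 change of -0.25 ± 0.10 (SE, n = 2 arrays per group, 95% interval -0.48 to -0.02) that did not pass (limma, Benjamini-Hochberg adjusted p = 0.316 over all probes). As these are bulk samples, fewer cells of a type and less RNA per cell cannot be told apart in this or any later value.

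In HepG2, CPT1A had 4179 and 3816 with GSK343 against 2280 and 2215 in controls. Both treated arrays lay above both controls, and they did so in the deposited values too, at 3363 and 3531 with GSK343 against 1438 and 1278 in controls. The log2 change was 0.83 ± 0.10, or 1.78-fold with a 95% interval of 1.51 to 2.09 (limma adjusted p = 0.00398). The call remained when each array was left out in turn, with a highest adjusted p of 0.039. The responses differed between the lines by -1.08 ± 0.14 on the log2 scale (95% interval -1.41 to -0.75, PLC5 minus HepG2, limma adjusted p = 0.0274). That difference did not stand without any 1 of the 8 arrays, where its adjusted p ranged from 0.0594 to 0.109, nor with eBayes fitted without an intensity trend (adjusted p = 0.113).

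The second CPT1A probe, which was dimmer, had the same order of lines but showed no called response. It read 788 and 802 with GSK343 against 878 and 774 in PLC5 controls, and 257 and 268 with GSK343 against 255 and 189 in HepG2 controls. The PLC5 groups overlapped, whereas both treated HepG2 arrays were above both controls, the nearest pair being 257 against 255. Its log2 changes were -0.05 ± 0.16 in PLC5 (limma adjusted p = 0.928) and 0.26 ± 0.16 in HepG2 (limma adjusted p = 0.343), and the difference of the responses was -0.31 ± 0.23 (adjusted p = 0.519). The rise of CPT1A in HepG2 and its difference between the lines therefore rest on 1 of 2 probes.

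**Figure D1:**
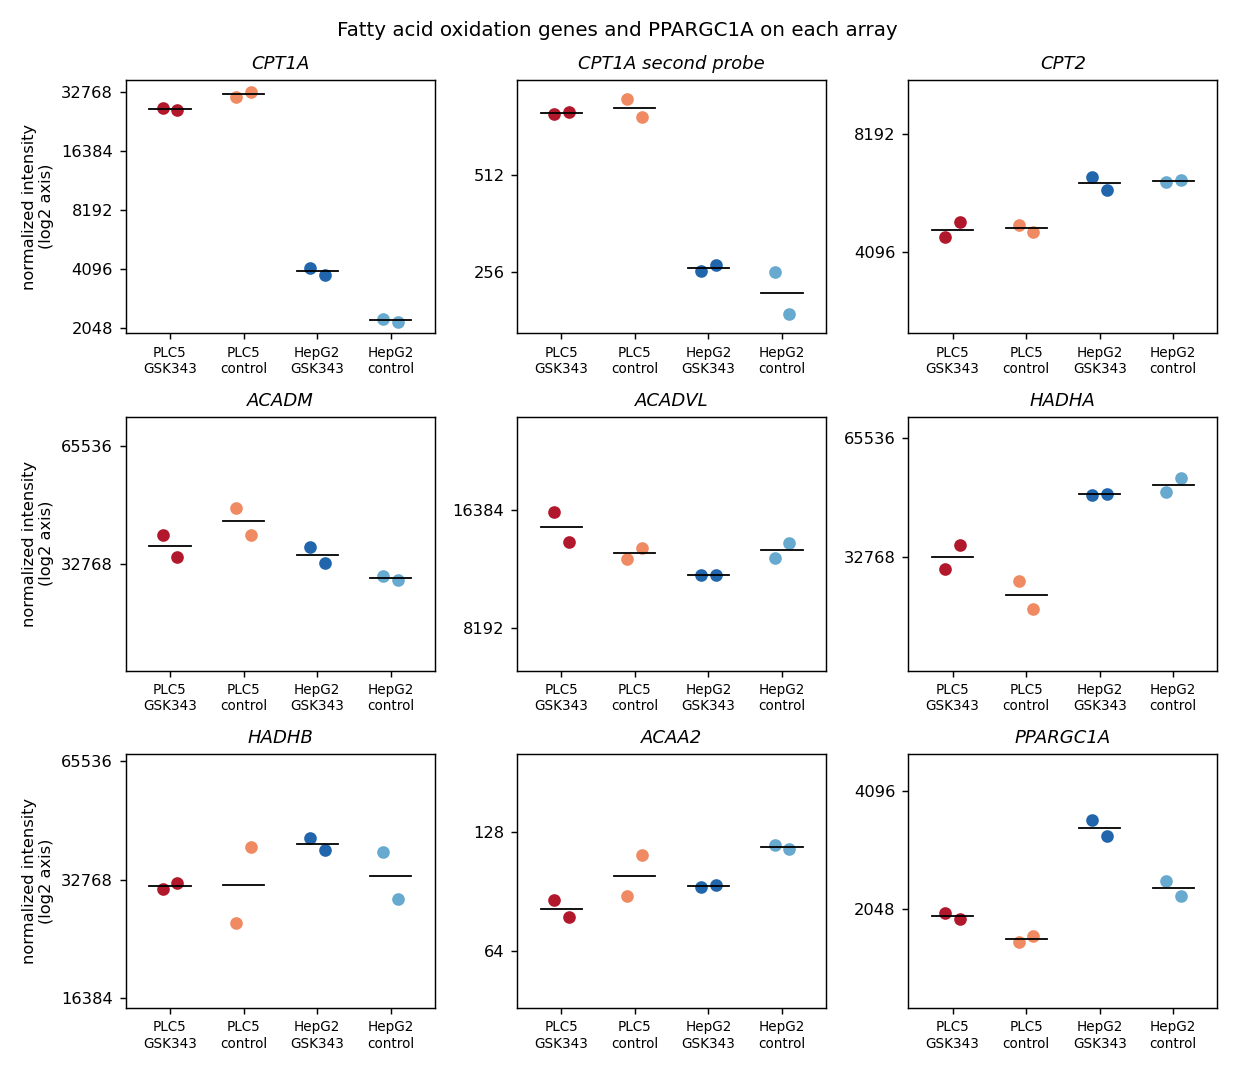
Normalized intensity of each member probe on each of the 8 arrays (log2 axis, points are arrays, bars are geometric means, 2 arrays per group, groups along the x axis). CPT1A lies between 26814 and 33109 on all 4 PLC5 arrays and between 2215 and 4179 on all 4 HepG2 arrays, and the axis of each panel has its own range, so heights are not to be compared between panels.

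CPT2, the inner membrane transferase that turns the carnitine ester back into an acyl-CoA, showed no called response in either line. CPT2 (chr1:53196824-53214197) had 4491 and 4879 with GSK343 against 4797 and 4626 in PLC5 controls, and 6378 and 5899 with GSK343 against 6166 and 6262 in HepG2 controls. The groups overlapped in both lines. The log2 changes were -0.01 with a 95% interval of -0.25 to 0.23 in PLC5 (limma adjusted p = 0.982), and -0.02 with -0.26 to 0.22 in HepG2 (limma adjusted p = 0.931).

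The 2 acyl-CoA dehydrogenases take the first oxidation step in the matrix, ACADVL on very long chains at the inner membrane and ACADM on medium chains. ACADVL (chr17:7217125-7225266) had 16158 and 13532 with GSK343 against 12288 and 13105 in PLC5 controls, and 11188 and 11164 with GSK343 against 12371 and 13510 in HepG2 controls. Treated arrays lay above the controls in PLC5 and below them in HepG2, without overlap in either line. Neither change passed, at 0.22 ± 0.12 in PLC5 (limma adjusted p = 0.437) and -0.21 ± 0.12 in HepG2 (limma adjusted p = 0.279), nor did their difference of 0.43 ± 0.16 (limma adjusted p = 0.232).

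ACADM (chr1:75724709-75763679), whose deficiency is a common inherited disorder of fatty acid oxidation, had the opposite order. ACADM had 38954 and 34171 with GSK343 against 45624 and 38879 in PLC5 controls, and 36343 and 33047 with GSK343 against 30614 and 29904 in HepG2 controls. The PLC5 groups overlapped, and in HepG2 both treated arrays were above both controls. The log2 changes of -0.21 ± 0.11 in PLC5 (limma adjusted p = 0.459) and 0.20 ± 0.11 in HepG2 (limma adjusted p = 0.303) did not pass.

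HADHA and HADHB encode the alpha and beta subunits of the mitochondrial trifunctional protein, which carries out the later steps of each round on long chains: HADHA the hydration and the second oxidation, HADHB the thiolysis. HADHA (chr2:26190635-26244632) had 30590 and 35187 with GSK343 against 28456 and 24126 in PLC5 controls, and 47086 and 47393 with GSK343 against 47826 and 51848 in HepG2 controls. Treated PLC5 arrays were above their controls and treated HepG2 arrays below theirs, with log2 changes of 0.32 ± 0.11 (limma adjusted p = 0.243) and -0.08 ± 0.11 (limma adjusted p = 0.708). Their difference of 0.40 ± 0.16 did not pass either (limma adjusted p = 0.253).

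HADHB (chr2:26244939-26290465), which starts 307 bases from HADHA as shown above, had widely spread control arrays. HADHB had 31049 and 32159 with GSK343 against 25382 and 39697 in PLC5 controls, and 41676 and 39008 with GSK343 against 38445 and 29269 in HepG2 controls. The 2 PLC5 controls lay on either side of both treated arrays. The 95% interval of its log2 change was -0.46 to 0.45 in PLC5 (limma adjusted p = 0.993) and -0.19 to 0.72 in HepG2 (limma adjusted p = 0.428), so a change of the size seen for HADHA would not have been distinguishable here.

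ACAA2, the thiolase of the matrix for medium and shorter chains, was measured by a dim probe at the 28.3 percentile of all probes by mean intensity. ACAA2 (chr18:49782164-49813533) had 86 and 78 with GSK343 against 88 and 112 in PLC5 controls, and 93 and 94 with GSK343 against 119 and 116 in HepG2 controls. Treated arrays lay below the controls in both lines, yet the log2 changes of -0.28 ± 0.19 (limma adjusted p = 0.553) in PLC5 and -0.33 ± 0.19 (limma adjusted p = 0.287) in HepG2 did not pass.

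PPARGC1A was the other member called higher in HepG2. In PLC5 it had 2002 and 1937 with GSK343 against 1689 and 1754 in controls, without overlap, at a log2 change of 0.19 ± 0.12 that did not pass (limma adjusted p = 0.5). In HepG2 it had 3462 and 3143 with GSK343 against 2419 and 2217 in controls, and both treated arrays were above both controls. The HepG2 log2 change was 0.51 ± 0.12, or 1.42-fold with a 95% interval of 1.19 to 1.71 (limma adjusted p = 0.0336). The difference between the lines of -0.32 ± 0.16 did not pass (limma adjusted p = 0.36). The HepG2 call was lost without any 1 of the 4 HepG2 arrays, with adjusted p from 0.0769 to 0.18, and without the intensity trend (adjusted p = 0.0663).

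**Figure D2:**
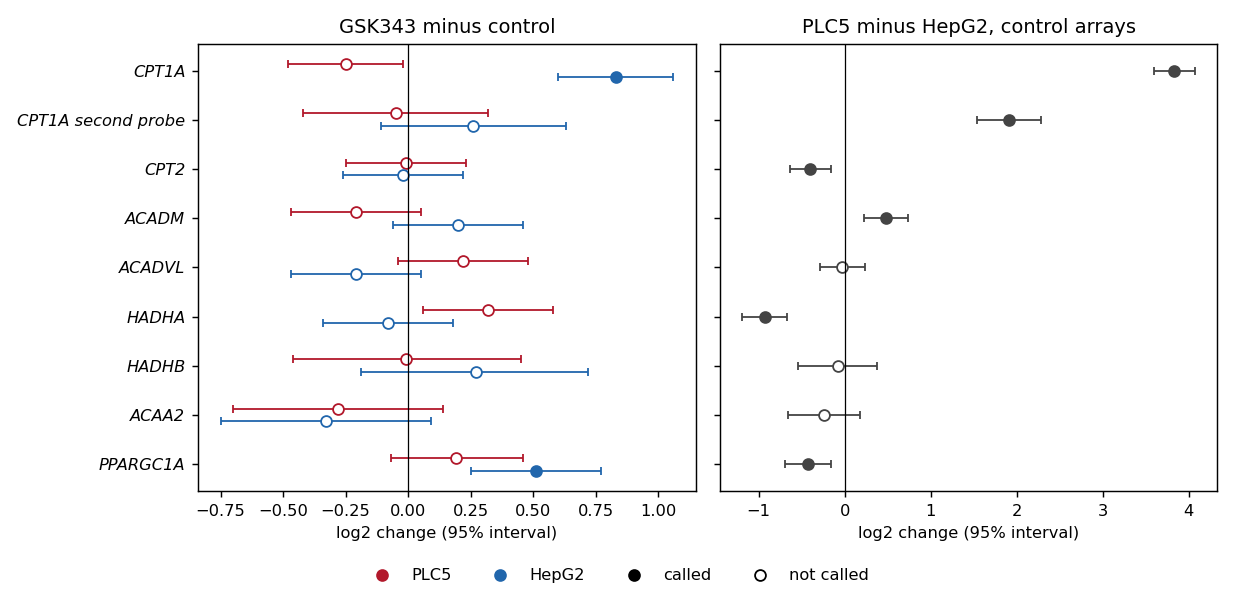
Log2 changes of the 9 member probes with 95% intervals from limma: GSK343 minus control in PLC5 and HepG2 (left), and PLC5 minus HepG2 among control arrays (right), with filled points for calls at an adjusted p under 0.05. CPT1A at 0.83 and PPARGC1A at 0.51 in HepG2 are the filled points on the left, and CPT1A at 3.83 stands far from the others on the right.

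Over the 8 genes, 0 were higher and 0 lower after GSK343 in PLC5 by limma, where 0.834% of all genes were called higher and 0.235% lower, and 2 of the 8 (CPT1A and HADHA, on opposite sides) had an unadjusted p under 0.05. In HepG2, 2 were higher and 0 lower, beside 5.35% and 3.45% of all genes. For the difference of the responses 0 were higher and 1, CPT1A, lower, beside 0.436% and 0.404% of all genes. The median log2 change of the 8 was -0.01 in PLC5 and 0.09 in HepG2, against -0.01 over all genes in each line. The 8 changes ran from -0.28 to 0.32 in PLC5, with 3 above 0, and from -0.33 to 0.83 in HepG2, with 4 above 0. Scaling shifts the whole array. Without normalization the median log2 change of all probes with GSK343 in HepG2 was 0.50, with CPT1A at 1.35 and PPARGC1A at 1.02. Of the probes called in HepG2, 59.9% were higher, against 84% when arrays were centred on their median and 98.8% without normalization.

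The control arrays compare the lines without drug. CPT1A had 31049 and 33109 in PLC5 controls against 2280 and 2215 in HepG2 controls, a log2 difference of 3.83 ± 0.10, or 14.3-fold (limma adjusted p = 7.66e-09). The second CPT1A probe was 1.91 ± 0.16 higher in PLC5, or 3.76-fold (limma adjusted p = 1.29e-05), so both probes gave the same direction with different sizes. The increase of CPT1A in HepG2 with GSK343 left it at 4179 and 3816, far below either PLC5 group. The levels ran, from the highest, PLC5 control, PLC5 GSK343, HepG2 GSK343 and HepG2 control, and of the neighbours in that order the PLC5 groups showed no called difference, the HepG2 groups differed by the test, and the treated groups of the 2 lines were not tested against each other.

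HADHA was lower in PLC5, at 28456 and 24126 against 47826 and 51848 in HepG2 controls, with a log2 difference of -0.93 ± 0.11 (limma adjusted p = 0.000138), which was -0.38 with quantile normalization within each line (adjusted p = 0.0176) and -0.23 without normalization, where it did not pass (adjusted p = 0.286). HADHB, its partner, showed no called difference at -0.08 ± 0.20 (limma adjusted p = 0.761), with overlapping arrays, but without normalization it was called higher in PLC5 at 0.65 (adjusted p = 0.0134). ACADM was higher in PLC5 by 0.48 ± 0.11 (limma adjusted p = 0.0065), although not when arrays were centred on their median (0.24, adjusted p = 0.378), and by 1.20 without normalization and 1.05 with normalization within each line. CPT2 was lower by -0.40 ± 0.11 (limma adjusted p = 0.0114) and PPARGC1A by -0.43 ± 0.12 (limma adjusted p = 0.012), but both were called higher in PLC5 without normalization, at 0.53 and 0.59 (adjusted p = 0.0115 and 0.0129), and with quantile normalization within each line, at 0.32 and 0.36 (adjusted p = 0.0248 and 0.0222).

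The median log2 difference of all probes, PLC5 minus HepG2, was 0.86 without normalization and 0.70 with normalization within each line. The differences of CPT2 and PPARGC1A were thus smaller than the median difference under both settings. Neither difference passed when arrays were centred on their median (adjusted p = 0.0508 for CPT2 and 0.14 for PPARGC1A). Without HepG2 control replicate 1 the CPT2 and PPARGC1A differences did not pass, with adjusted p of 0.0534 and 0.0835, and without HepG2 control replicate 2 that of CPT2 did not, at 0.0692. ACADVL at -0.03 ± 0.12 (limma adjusted p = 0.864) and ACAA2 at -0.24 ± 0.19 (limma adjusted p = 0.301) showed no called difference, although ACADVL was called higher in PLC5 without normalization, at 0.79 (adjusted p = 0.00117), and with normalization within each line, at 0.61 (adjusted p = 0.00144). With quantile normalization over all arrays, 2 of the 8 genes were thus higher and 3 lower in PLC5, beside 26.8% and 31.6% of all genes, and their median of -0.16 stood beside -0.09 for all genes. The counts of members were 6 higher and 0 lower without normalization, 5 higher and 1 lower with normalization within each line, and 1 higher and 1 lower with arrays centred on their median. Of the 8, CPT1A alone was called in the same direction under all 4 scalings. Of all probes called between the lines, 46.7% were higher in PLC5, against 88.8% without normalization and 85.3% with normalization within each line.

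For each member the genes with the most similar pattern over the 8 arrays were taken among 10725 genes of the brighter probes, by the root mean square distance of log2 values centred on each gene's mean. For CPT1A they were YBEY (0.06), ADGRL1 (0.11) and CDK14 (0.12). For PPARGC1A they were MTMR3 (0.05), TUBG2 (0.06) and ITFG1 (0.07). For HADHA they were ADRA1B (0.06), RPS6KA1 (0.06) and ELN (0.07), and for HADHB, MFF (0.09), PIP4K2B (0.10) and DTNBP1 (0.10). None of the 3 nearest genes of any member was another member. With 3 genes taken from 10725, and dim ACAA2 outside the genes searched, this does not show whether the members vary together.

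The pathway around the members was read from 7 lists with 93 measured genes, members included. In HepG2, 14 of the 93 were higher and 4 lower after GSK343, beside 5.35% and 3.45% of all genes. The same shares of all genes apply to each HepG2 count by list below. Of the 16 called genes that are not members, only LPIN1 kept its call when each of the 8 arrays was left out in turn, so the names below are those of the full set of arrays. The sign of all 16 was the same under the 3 other scalings, but calls were not. Of the 18 called genes, 14 of the 14 higher and 0 of the 4 lower kept their call without normalization, and 12 higher and 1 lower, PRKAA1, with arrays centred on their median, where SLC27A5 (adjusted p = 0.389) and FABP1 (0.309) were the higher ones lost. Without the intensity trend 8 of the 18 kept their call.

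Among 18 other genes of mitochondrial beta-oxidation, 1 was higher and 0 lower in HepG2, with a median of 0.10. It was ETFDH, the oxidoreductase that passes electrons from the acyl-CoA dehydrogenases to ubiquinone. ETFDH had 1422 and 1702 with GSK343 against 1260 and 1391 in PLC5 controls, and 551 and 468 with GSK343 against 253 and 275 in HepG2 controls. The HepG2 groups did not overlap, at a log2 change of 0.94 ± 0.15 (limma adjusted p = 0.0101), and the call was lost without GSK343 replicate 1 of HepG2 (adjusted p = 0.0668). The 2 subunits of the electron transfer flavoprotein that feeds it, ETFA and ETFB, had no called change. The carnitine carrier SLC25A20, which stands between the 2 carnitine transferases, was at 0.47 ± 0.13 in HepG2 (limma adjusted p = 0.0631). A second, dimmer probe of ACADSB was called at 0.65 ± 0.12 (limma adjusted p = 0.0197), where its brighter probe was at -0.05, and that call was lost without any 1 of the 4 HepG2 arrays (highest adjusted p 0.102).

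Ketone body metabolism was read from 3 genes, and 0 were called higher or lower by limma in either line, nor did any have an unadjusted p under 0.05. ACAT1, the thiolase that joins acetyl-CoA units, was at 0.14 ± 0.15 in HepG2 (limma adjusted p = 0.563), while its second probe was called at 0.52 ± 0.13 (limma adjusted p = 0.0475), a call that 6 of the 8 arrays ended when left out (highest 0.24). BDH1, which interconverts acetoacetate and hydroxybutyrate, was at -0.39 ± 0.21, and OXCT1, which activates ketone bodies for use outside the liver, at 0.34 ± 0.18. Between the controls BDH1 and OXCT1 were lower in PLC5, by -1.93 ± 0.21 and -2.11 ± 0.18 (limma adjusted p = 5.17e-05 and 1.12e-05).

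In peroxisomal beta-oxidation, 1 of 14 genes was higher in HepG2 and 0 lower. This was ACOX2, the acyl-CoA oxidase of branched chains and bile acid precursors, at 5337 and 5060 with GSK343 against 3500 and 3503 in controls (log2 change 0.57 ± 0.12, limma adjusted p = 0.0245). Its groups did not overlap, and the call was lost without any 1 of the 4 HepG2 arrays (highest adjusted p 0.123). Second, dimmer probes of 3 further genes were called in HepG2 where the brighter probe was not. That of SCP2, the sterol carrier and thiolase, was higher at 0.86 ± 0.12 (limma adjusted p = 0.00618, brighter probe -0.21), and the difference of its responses, PLC5 minus HepG2, was called at -1.01 ± 0.17 (limma adjusted p = 0.0469, brighter probe 0.10). That of PEX11A, a factor of peroxisome division, was higher at 0.58 ± 0.14 (limma adjusted p = 0.0396, brighter probe 0.23), and that of ACOX3, another acyl-CoA oxidase of branched chains, lower at -0.53 ± 0.14 (limma adjusted p = 0.0493, brighter probe -0.04). Leaving out 1 array ended the SCP2 call in HepG2 for 1 of the 8 arrays and its difference for all 8 (highest adjusted p 0.0525 and 0.154), PEX11A for 6 (0.17) and ACOX3 for all 8 (0.188), and ACOX3 did not pass without normalization (0.94) or with median centring (0.534).

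Of 15 genes of fatty acid uptake, activation and lipolysis, 3 were higher in HepG2 and 0 lower: SLC27A5, the acyl-CoA synthetase of bile acids, ACSL3, the long-chain synthetase of lipid droplets, and FABP1, the liver fatty acid binding protein. FABP1 had 37506 and 40600 with GSK343 against 27004 and 27151 in PLC5 controls, and 234920 and 230848 with GSK343 against 163797 and 175634 in HepG2 controls. It was higher in both lines, by 0.53 ± 0.08 in PLC5 (limma adjusted p = 0.0297) and 0.46 ± 0.08 in HepG2 (limma adjusted p = 0.0176). The PLC5 call was lost without any 1 of the 8 arrays (highest adjusted p 0.143), and the HepG2 call without any 1 of the 4 HepG2 arrays (highest 0.0907). SLC27A5 changed by 0.87 ± 0.16 and ACSL3 by 0.51 ± 0.11 in HepG2, and their calls were lost without each of 3 and of 4 HepG2 arrays (highest adjusted p 0.0918 and 0.181), the exception for SLC27A5 being control replicate 1.

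Malonyl-CoA, the inhibitor of CPT1A, is made by acetyl-CoA carboxylase, which AMP-activated protein kinase restrains, and is removed by MLYCD. Of 9 genes here, 3 were higher and 2 lower in HepG2. ACACA, a carboxylase that makes malonyl-CoA, had 20868 and 23004 with GSK343 against 12509 and 13059 in HepG2 controls. Its groups did not overlap, at 0.78 ± 0.12 (limma adjusted p = 0.00924), and in PLC5 it was at 0.61 ± 0.12 without passing (limma adjusted p = 0.0641). A second, dim ACACA probe was at 0.80 ± 0.22 in HepG2 and did not pass (limma adjusted p = 0.0629). ACACB, the carboxylase at the mitochondrial surface, was at 0.24 in HepG2 (limma adjusted p = 0.215). MLYCD, which degrades malonyl-CoA, was higher too, by 0.53 ± 0.13 (limma adjusted p = 0.0384), so a maker and a remover of the same inhibitor were both called higher. Without GSK343 replicate 2 of HepG2 the ACACA call was lost (adjusted p = 0.0653), and the MLYCD call was lost without any 1 of the 4 HepG2 arrays or PLC5 control replicate 1 (highest 0.184).

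The catalytic subunits of the AMP-activated kinase were lower in HepG2 with quantile normalization, and both calls depended on the scaling. PRKAA1 had 2595 and 2822 with GSK343 against 4403 and 4382 in controls (log2 change -0.70 ± 0.12, limma adjusted p = 0.0121), and PRKAA2 changed by -0.61 ± 0.15 (limma adjusted p = 0.0438). A second PRKAA1 probe was at -0.32 ± 0.19 without passing, while a second PRKAA2 probe was called at -0.81 ± 0.12. Without normalization PRKAA1 was at -0.25 (adjusted p = 0.344) and PRKAA2 at -0.10 (adjusted p = 0.782), and with arrays centred on their median PRKAA2 was at -0.43 (adjusted p = 0.33). The second PRKAA2 probe did not pass under either setting (adjusted p = 0.318 and 0.102). The regulatory subunit PRKAG2 went the other way, at 229 and 264 with GSK343 against 78 and 109 in HepG2 controls (1.41 ± 0.23, limma adjusted p = 0.0121). Leaving out 1 array ended the PRKAA1 call for each of the 4 HepG2 arrays (highest adjusted p 0.0781), the PRKAA2 call for each of the 8 (0.196) and the PRKAG2 call for each GSK343 array of HepG2 (0.0711).

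Of 16 nuclear receptors and coregulators of the pathway beside PPARGC1A, 4 were higher and 1 lower in HepG2, with a median of 0.20. LPIN1, a phosphatidate phosphatase that also coactivates PPARA with PGC-1α, had 7702 and 6065 with GSK343 against 2160 and 2748 in PLC5 controls, and 14862 and 11968 with GSK343 against 3708 and 3955 in HepG2 controls. Treated arrays were far above controls in both lines, at 1.49 ± 0.17 or 2.81-fold in PLC5 (limma adjusted p = 0.00556) and 1.80 ± 0.17 or 3.48-fold in HepG2 (limma adjusted p = 0.00139). The difference between the lines did not pass (limma adjusted p = 0.537). A second LPIN1 probe was called in both lines too, at 1.45 in PLC5 and 1.30 in HepG2. The PLC5 call of the main probe was lost without PLC5 control replicate 1 (adjusted p = 0.0553).

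PPARA, the receptor that switches on fatty acid oxidation in fasting, had 6694 and 7853 with GSK343 against 4879 and 4638 in HepG2 controls. Its main probe was at 0.61 ± 0.12 (limma adjusted p = 0.0194), but its 2 other probes were at 0.26 ± 0.16 and -0.04 ± 0.15 and did not pass. RXRA, the partner of PPARA on DNA, had 4237 and 3752 with GSK343 against 2212 and 2419 in HepG2 controls (0.79 ± 0.12, limma adjusted p = 0.0101). ESRRA, a receptor that PGC-1α coactivates, was at 0.70 ± 0.17 (limma adjusted p = 0.0459), with a second probe at 0.84 ± 0.19. FOXO1, a transcription factor of the fasting response, was lower at -0.55 ± 0.14 (limma adjusted p = 0.0481), but at -0.08 without normalization (adjusted p = 0.792) and -0.41 with median centring (adjusted p = 0.297), and PPARGC1B, a relative of PPARGC1A, was at 0.46 without passing (limma adjusted p = 0.207). Leaving out 1 array ended the calls of PPARA for each of the 4 HepG2 arrays (highest adjusted p 0.12), of RXRA for GSK343 replicate 1 of HepG2 (0.071), of ESRRA for each HepG2 array and each PLC5 control (0.205), and of FOXO1 for each HepG2 array and each GSK343 array of PLC5 (0.241).

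Of 10 targets of PPARA that rise in fasting liver, 0 were higher and 1 lower in HepG2. PLIN2, the coat protein of lipid droplets, had 79468 and 93349 with GSK343 against 61582 and 64315 in PLC5 controls, and 95913 and 115331 with GSK343 against 168984 and 145583 in HepG2 controls. Treated arrays were above the controls in PLC5 without passing, at 0.45 ± 0.12 (limma adjusted p = 0.146), and below them in HepG2, at -0.58 ± 0.12 (limma adjusted p = 0.0284). The HepG2 change was -0.28 without normalization (adjusted p = 0.315) and -0.61 with median centring (adjusted p = 0.0803), and passed neither time. The responses differed by 1.03 ± 0.18, PLC5 minus HepG2 (limma adjusted p = 0.0485), which was lost without any 1 of the 8 arrays (highest adjusted p 0.15) and under each of the 3 other scalings (adjusted p from 0.0554 to 0.197), and the HepG2 call was lost without any 1 of the 4 HepG2 arrays (highest 0.136). PDK4, the kinase that holds pyruvate dehydrogenase off when fat is burned, was at -0.63 ± 0.23 in HepG2 (limma adjusted p = 0.122) from intensities of 24 to 48, and FGF21, a fasting hormone, had no called change.

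**Figure D3:**
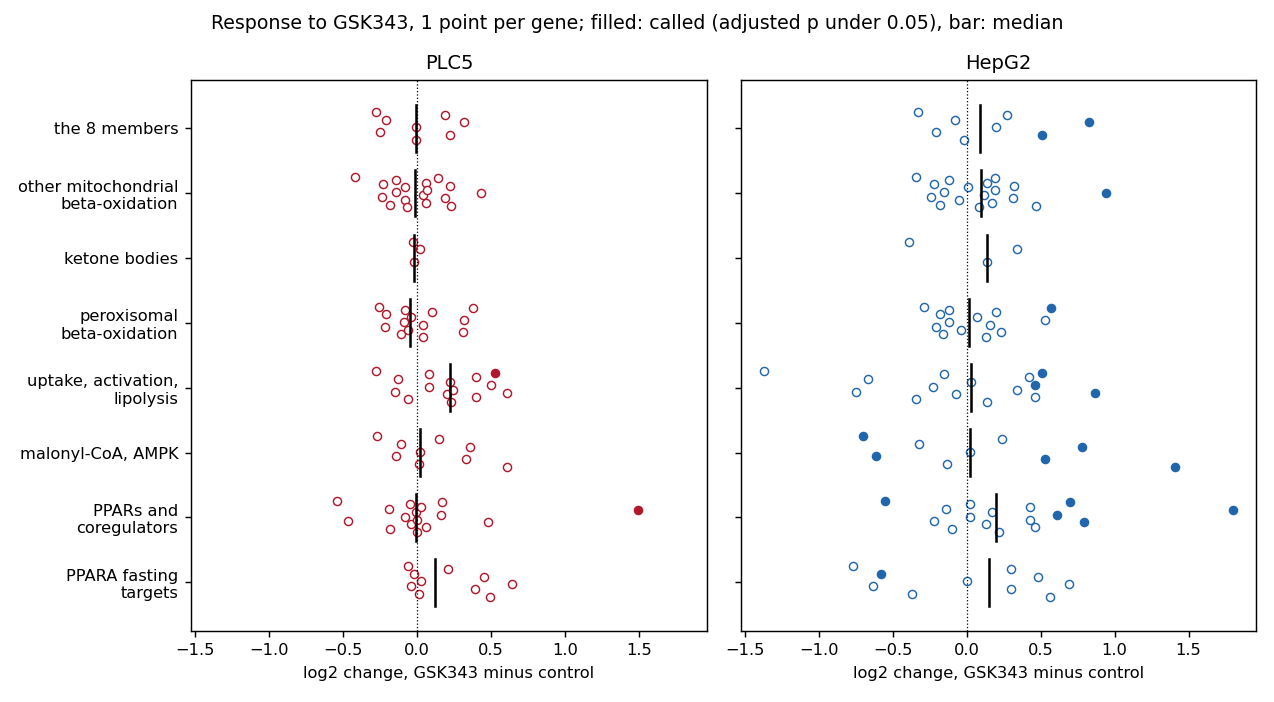
Log2 change with GSK343 of each measured gene in the 8 groups of pathway genes, in PLC5 (left) and HepG2 (right), 1 point per gene, filled where called and with a bar at each group's median. In PLC5 only LPIN1 (1.49) and FABP1 (0.53) are filled, and in HepG2 the filled points lie on both sides of 0, from -0.70 for PRKAA1 to 1.80 for LPIN1, although none of the 4 below 0 passed without normalization.

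In PLC5, LPIN1 and FABP1 were the 2 of 93 genes called, both higher, beside 0.834% of all genes higher and 0.235% lower. Of the 14 genes higher and 4 lower in HepG2, the difference between the lines was called for CPT1A and PLIN2, and a difference was not shown for the other 16.

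Between the control arrays, 26.8% of all genes were called higher in PLC5 and 31.6% lower with quantile normalization over all arrays. Of the 93 pathway genes, 23 were higher and 41 lower. That balance turned with the scaling, to 50 higher and 15 lower without normalization and 48 higher and 20 lower with normalization within each line, and was 16 higher and 35 lower with arrays centred on their median. The counts per list below are those with quantile normalization, and the same shares of all genes apply to them. For 15 of the 59 called genes that are not members the direction flipped under at least 1 of the 3 other scalings, and the genes named here kept theirs under all 3 and kept their call without each array in turn. In mitochondrial beta-oxidation 5 of 18 were higher and 7 lower, with ETFDH higher in PLC5 (2.33 ± 0.15) and ETFB lower (-2.48 ± 0.09), although both serve the same electron transfer step. In peroxisomal beta-oxidation 3 of 14 were higher and 5 lower, the largest being ACOX2 (-2.47 ± 0.12) and EHHADH, the bifunctional enzyme (-2.37 ± 0.18). The largest on the higher side was CROT at 1.64. Of the uptake and activation genes 1 of 15 was higher, MGLL at 1.41, and 10 were lower. Among the lower were ACSL1 at -3.56 ± 0.17, ACSL5 at -3.42 ± 0.14 and FABP1 at -2.65 ± 0.08. The median of this list was -0.87 against -0.09 for all genes. Without normalization this list had 3 higher and 3 lower with a median of -0.15. With normalization within each line it had 3 higher and 6 lower with a median of -0.28. The median log2 differences of all probes under these 2 settings were 0.86 and 0.70. ACSL1, the main long-chain synthetase of liver, had 3313 and 4429 in PLC5 controls against 40140 and 51193 in HepG2 controls, the inverse order of CPT1A, which takes the next step.

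Of the 9 malonyl-CoA and kinase genes 3 were higher and 3 lower, with PRKAG2 at 4.29 ± 0.23 and PRKAB2 at -0.87. Of the 16 receptors and coregulators 5 were higher and 8 lower, with ESRRA at 1.52 ± 0.17 and RXRA at -1.41. Of the 10 PPARA targets 4 were higher and 3 lower. PDK4 had 5953 and 6281 in PLC5 controls against 45 and 48 in HepG2 controls, a log2 difference of 7.05 ± 0.23 (limma adjusted p = 2.32e-08), and ANGPTL4, an inhibitor of lipoprotein lipase, had 6028 and 5724 against 586 and 762, at 3.14 ± 0.16. TXNIP, a regulator of glucose uptake, was lower in PLC5 at -2.94 ± 0.12. The hepatocyte markers were lower in PLC5 for 8 of 9, whereas the pathway genes named above went in both directions. The part of hepatocyte state in the differences between the lines was not tested.

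**Figure D4:**
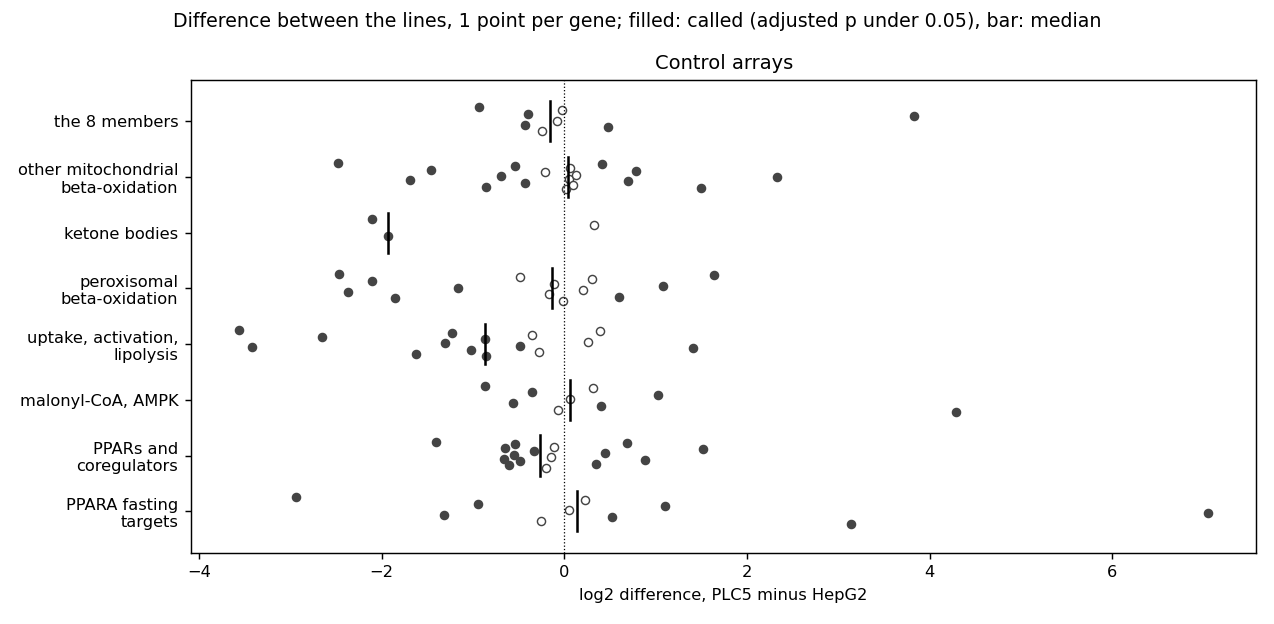
Log2 difference between PLC5 and HepG2 control arrays of each measured pathway gene, 1 point per gene, filled where called and with a bar at each group's median. CPT1A (3.83) stands apart from the other members, which lie between -0.93 and 0.48, and the uptake and activation genes have a median of -0.87.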

How the data were processed

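Total RNA of 8 samples was amplified to amino-allyl antisense RNA and coupled to a Cy5 dye, per the labels' protocols. The authors deposited 1 intensity value per probe and array on a linear scale, and since some values were 0 or negative a background appears to have been subtracted. Scanner software, flags and any normalization by the authors: not given in the sources used here. Because the deposited medians showed no normalization, quantile normalization was applied across all arrays, values under 1 were set to 1, and log2 was taken. Probes were named through the platform table (24740 with 1 symbol, 977 with several and 6024 with none) and symbols updated through RefSeq, assembly GRCh38.p14. A gene stood by its brightest 1-symbol probe, and further probes of the named genes are given where their call in a response to GSK343 differed. Of 36 further probes of 32 pathway genes, 10 differed from the brightest in being called or not in HepG2, 0 in PLC5, 2 for the difference and 14 between the controls.

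All 8 arrays entered 1 fit in limma 3.58.1 (R 4.3.3) with lmFit and eBayes with an intensity trend (4 residual and 4.75 prior degrees of freedom). P-values are two-sided and adjusted by Benjamini-Hochberg over all probes, with calls under 0.05. The fit was tested on simulated data. With 2 arrays per group, their number limits the precision. The members and lists were chosen with earlier results of these data known. Named genes were every member, up to 3 called genes per list and direction with the largest change, several fixed genes (ACAT1, BDH1, OXCT1, PPARA, PPARGC1B and ACACB) and the 3 nearest patterns per member. ETFA, SLC25A20, FGF21, ALB, second probes of ACADSB, SCP2, PEX11A and ACOX3, and PDK4 in HepG2 were named outside that rule after their values were seen. Alternatives were 3 other scalings, a pseudocount of 16, a floor of 64, leaving out the dimmest 25% or 50% of probes, other variance models, a replicate block, fewer arrays in the fit, another probe and leaving out each array.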

Additional observations from a re-analysis of the deposited data

Results flagged for a closer look

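Between the lines, the response to GSK343 differed by the test of the difference itself for 2 of the 93 pathway genes. Over all genes, 0.436% were called higher and 0.404% lower by the same test. For CPT1A the difference, PLC5 minus HepG2, was -1.08 ± 0.14 on the log2 scale (limma adjusted p = 0.0274), with a change of -0.25 in PLC5 and 0.83 in HepG2. For PLIN2 it was 1.03 ± 0.18 (limma adjusted p = 0.0485), the opposite sign. A second probe of SCP2 had a difference of -1.01 ± 0.17 (limma adjusted p = 0.0469), where its brighter probe was at 0.10 and did not pass. None of these 3 calls stood without any 1 of the 8 arrays, and the second CPT1A probe had a difference of -0.31 that did not pass (limma adjusted p = 0.519).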

How the results depend on the processing

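Of 675 values of members under alternatives, 613 kept their direction and their side of the threshold, 25 lost a call and 37 changed sign. Of these 37, 4 were called in both directions and 3 became calls only after the change, all between the controls: CPT2 and PPARGC1A without normalization and within each line, ACADVL under both and HADHB without normalization. The other 30 were called on neither side. Without normalization between arrays the log2 change turned to 0.08 for ACAA2, 0.13 for ACADVL, 0.40 for CPT2 and 0.19 for HADHA in HepG2, and to 0.02 for CPT2 and 0.08 for the second CPT1A probe in PLC5. The difference of the responses turned to -0.27 for ACAA2 and -0.37 for CPT2. Between the controls, PLC5 over HepG2, the sign turned to 0.57 for ACAA2, 0.79 for ACADVL, 0.53 for CPT2, 0.65 for HADHB and 0.59 for PPARGC1A. With quantile normalization within each line those became 0.41, 0.61, 0.32, 0.50 and 0.36, in the same order of genes. Centring arrays on their median turned CPT2 to 0.07 in HepG2 and -0.08 in the difference, and the second CPT1A probe to 0.05 in PLC5. In all of these the cause was not tested.

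With 1 array left out, sign changes stayed among uncalled values. The difference of the responses then ranged from -0.13 to 0.21 for ACAA2, -0.05 to 0.07 for CPT2 and -0.60 to 0.05 for HADHB. The response in PLC5 ranged from -0.07 to 0.05 for CPT2, -0.33 to 0.32 for HADHB and -0.14 to 0.04 for the second CPT1A probe, and that in HepG2 from -0.07 to 0.04 for CPT2. Between the controls ACADVL ranged from -0.09 to 0.04 and HADHB from -0.40 to 0.24. With 1 array left out, 0 members were called for the difference, from 1 to 2 in HepG2 and from 3 to 5 between the controls, where the fewest came without HepG2 control replicate 1. Pathway genes called then numbered 0 for the difference, 3 to 17 in HepG2 and 0 to 1 in PLC5, and probes called 32 to 124 for the difference, 523 to 2262 in HepG2 and 117 to 167 in PLC5.

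Probes called for the difference numbered 221, against 340 with arrays centred on their median, 455 with a floor of 64, 19 without the intensity trend and 372 with robust eBayes. In HepG2 2572 probes were called, against 5641 without normalization and 1276 without the trend. In PLC5 276 were called, against 139 without normalization, 477 without the dimmest 50%, 78 without the trend and 101 with only the PLC5 arrays. Between the controls 17555 were called, against 11220 without the dimmest 50%. Pathway genes called in HepG2 numbered 18, against 33 without normalization and 8 without the trend. In PLC5 they numbered 2, against 1 with median centring, without normalization or with only the PLC5 arrays, and 0 with the floor of 64 or without the trend. For the difference they numbered 2, against 1 with median centring, within-line normalization or the floor, and 0 without the trend. Members called without the trend numbered 1 in HepG2 and 0 for the difference, and median centring left 2 of 5 between the controls. Of probes called in PLC5, 75.4% were higher, against 92.1% without normalization, and for the difference 47.1%, against 37.1% with median centring and 7.1% without normalization.

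The correlation of deviations of same-numbered arrays was -0.02 between the PLC5 groups and -0.10 between the HepG2 groups over all probes. With 2 arrays per group, these values do not show whether the replicate numbers pair the arrays. A fit with the replicate number as a block called 143 probes in PLC5, 1574 in HepG2 and 38 for the difference, 1 and 0 members in HepG2 and for the difference, and 1 and 0 pathway genes in PLC5 and for the difference. CPT1A kept its HepG2 call under this block and lost the call of the difference (adjusted p = 0.0669), and PPARGC1A lost its HepG2 call (adjusted p = 0.0598). The dim ACAA2 probe and the dimmer CPT1A probe limit what could be seen for them.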
